A study of Homo sapiens with 6 samples.

Results

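Enzymes that make serine and move its one-carbon unit through the folate cycle were measured as mRNA in MDA-MB-231 cells given BRL-50481 or its solvent. The 8 enzymes, all of which were found in the deposited table of 15651 genes and passed the filter on low values, were taken as a named list. They comprise PHGDH, PSAT1 and PSPH of serine synthesis, SHMT1 and MTHFD1 of the cytosolic folate cycle, and SHMT2, MTHFD1L and MTHFD2 of the mitochondrial folate cycle. MDA-MB-231 is an established human line of triple-negative breast cancer (TNBC), and BRL-50481 inhibits PDE7A, a phosphodiesterase that degrades cyclic AMP. RNA sequencing was performed on 6 libraries, 3 from cells given the solvent DMSO and 3 from cells given BRL-50481, described as biological replicates. The treatment text gives 50 μM for 72 h, whereas the treatment tag of the treated samples gives 5 μM and 48 h. No time is stated for DMSO, all groups are the same line without a genetic change, and a single cell line limits what the groups model.

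Serine synthesis branches from glycolysis in the cytosol, where PHGDH oxidizes phosphoglycerate, PSAT1 transfers an amino group from glutamate, and PSPH removes the phosphate. Serine then gives a one-carbon unit to tetrahydrofolate and becomes glycine, a step that SHMT1 performs in the cytosol and SHMT2 in mitochondria. In mitochondria, MTHFD2 oxidizes the folate-bound unit and MTHFD1L releases it as formate, while in the cytosol the multifunctional enzyme MTHFD1 takes formate back onto folate for the synthesis of purines and thymidylate. Proliferating tumor cells are known for high expression of the mitochondrial arm.

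The libraries held 30750573 to 33446984 reads on genes, and values are reads per gene scaled by the library's size factor (normalized counts). Among 6 genes expected in this mesenchymal line, the lowest was ZEB1 at a mean normalized count of 4605 and the highest VIM at 73247, and their sum was 150215 to 155394 with DMSO against 203606 to 205295 with BRL-50481. Of 6 luminal or epithelial genes, 5 were analyzed here, from PGR at 3.64 to ERBB2 at 1795, with a sum of 1845 to 2038 across DMSO libraries that was 2263 to 2402 after BRL-50481. Of 8 genes of leukocytes, fibroblasts and endothelium, 5 were analyzed, with a sum of 4092 to 4507 across DMSO libraries and 5805 to 6131 after BRL-50481, mostly CD68 (mean 4291), while CDH5 averaged 5.00. The part of these markers in the results was not tested. DMSO replicate 1 differed most from the other libraries of its group, with an SD of 0.141 for its log2 deviations from the group mean over genes averaging 50 or more, against 0.0791 to 0.119 in the other libraries.

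Before treatment effects were considered, the 8 enzymes were ordered by level, as normalized counts per kilobase (kb) of the canonical transcript. In DMSO, PSAT1 had the highest level (9677 ± 116 per kb, SD, n = 3), followed by SHMT2 (4307 ± 113), MTHFD1 (2279.6 ± 68.3) and MTHFD2 (1244 ± 16.1). PSPH (774 ± 8.78), MTHFD1L (672 ± 21.1), PHGDH (557 ± 65.6) and SHMT1 (234 ± 7.18) were lower. The ranges of neighbors in this order did not overlap in DMSO, although PHGDH reached 632 per kb where MTHFD1L began at 653. The order depends on the 1 length taken for each gene, and the isoforms expressed were not measured. By normalized count in DMSO, MTHFD1L (2319) lay above PSPH (1528). In BRL-50481, PSAT1 (5584 ± 114 per kb) lay just above SHMT2 (5210.2 ± 172), from which it was well separated in DMSO. MTHFD1L (811 ± 13.9) and PSPH (771 ± 31.8) then overlapped, between 795 and 808 per kb, so their order could not be told there. By mean normalized count, not per length, PSAT1 ranked 243 and SHMT1 8273 among the 15246 genes tested.

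**Figure D1:**
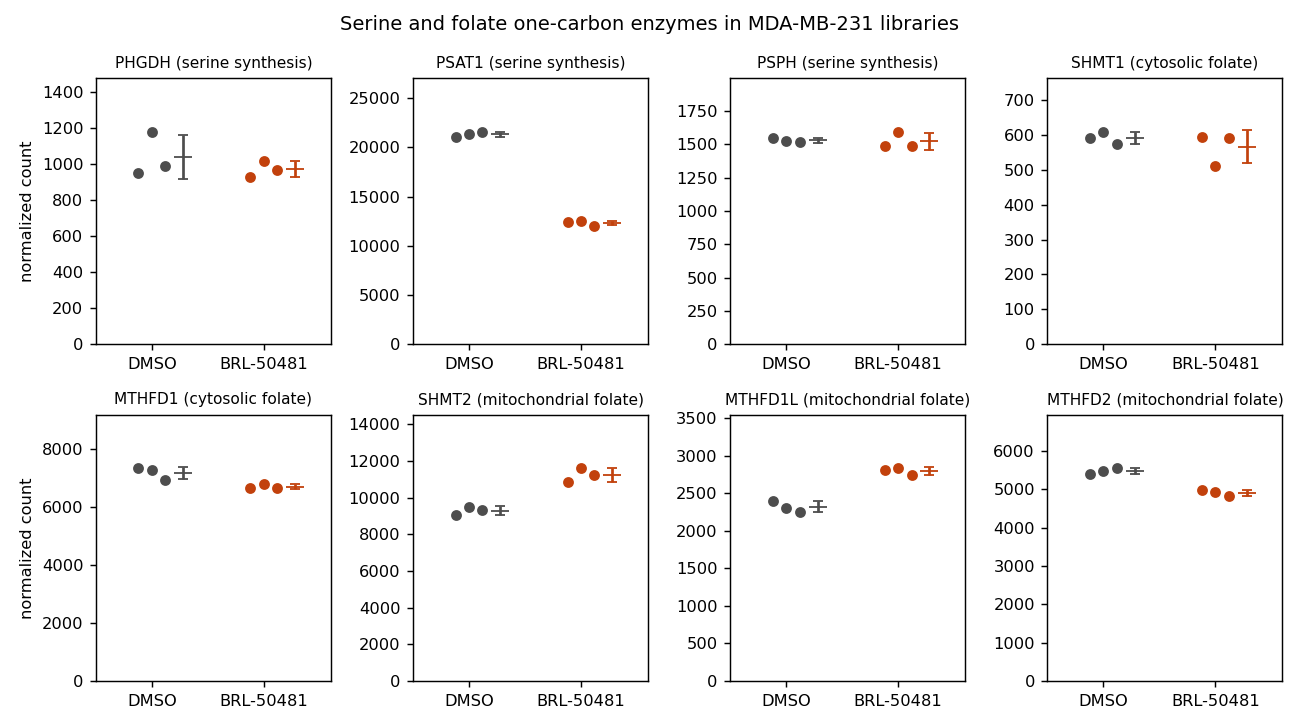
Normalized counts (vertical axes, linear from 0, each with its own scale) of the 8 enzymes in each library of DMSO (gray) and BRL-50481 (orange), with the mean and SD of 3 libraries beside the points. PSAT1 lay between 21097 and 21608 in DMSO and between 12036 and 12524 in BRL-50481, while the points of PHGDH, PSPH and SHMT1 overlapped.

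Next, the groups were compared with limma on log2 values, with p-values adjusted by the Benjamini-Hochberg method over all genes tested, so that each adjusted p below is from limma. PSAT1 was lower, SHMT2 and MTHFD1L were higher and MTHFD2 was slightly lower in BRL-50481, and the other 4 enzymes did not pass the threshold of 0.05. The authors' methods also require an absolute log2 fold change over 1. With limma, 1226 of the genes that passed exceeded it, and none of the 8 enzymes did. The 2 higher and 2 lower of 8 enzymes are to be read against a background in which 58.7% of all genes passed, 28.9% higher and 29.8% lower. The groups did not overlap for 5 of the 8, against 64.2% of all genes. The share of enzymes that passed was thus no larger than that of all genes, and their median log2 fold change was −0.080, against 0.015 over all genes. Each library is a bulk sample, in which a change in every cell and a change in some of the cells cannot be told apart.

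PSAT1 fell while the enzymes on either side of it in serine synthesis did not pass the test. PSAT1, the phosphoserine aminotransferase (chromosome 9 of hg38, 78297125 to 78330093), had normalized counts of 21097, 21340.1 and 21608 in DMSO and 12392, 12524 and 12036 in BRL-50481. All treated libraries lay below all DMSO libraries, and the spread within each group was small beside the gap. Its mean went from 21349 ± 255 to 12317 ± 252 (SD, n = 3 each), and limma put the log2 fold change at −0.79 (standard error 0.0422, 95% interval −0.88 to −0.70, adjusted p = 1.12e-08). Among the genes tested, 5.90% had a lower log2 fold change than PSAT1.

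PHGDH, the first enzyme of the branch (chromosome 1, 119648411 to 119744218), had normalized counts of 951, 1179 and 989.8 in DMSO and 927, 1018 and 968 in BRL-50481. The groups overlapped, and the highest value was that of DMSO replicate 2. The log2 fold change was −0.093 (95% interval −0.27 to 0.085, adjusted p = 0.351). It was 0.00088 without DMSO replicate 2, and −0.15 without DMSO replicate 1, where it passed the threshold (adjusted p = 0.0446). PSPH, the phosphatase that completes serine (chromosome 7, 56011051 to 56051604), had normalized counts of 1548, 1520.3 and 1516 in DMSO and 1489, 1594 and 1483 in BRL-50481. These values also overlapped, with a log2 fold change of −0.0063 (95% interval −0.13 to 0.12, adjusted p = 0.934), and the interval leaves room for a small change. Of the levels per kb summed over the 3 serine synthesis genes, PSAT1 made up 87.9% ± 0.503 with DMSO but 81.2% ± 0.524 with BRL-50481 (SD, 3 libraries a group), and the sum went from 11009 ± 132 to 6875 ± 152 per kb. PSAT1 remained the most abundant of them in every library.

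The promoter of PSAT1 is shown because it belongs to the enzyme with the largest change, as the 250 bases before the RefSeq start (GRCh38.p14, chr9:78296875-78297124, plus strand), 5′ to 3′. Capitals mark the CCAAT and GGGCGG motifs.
PSAT1: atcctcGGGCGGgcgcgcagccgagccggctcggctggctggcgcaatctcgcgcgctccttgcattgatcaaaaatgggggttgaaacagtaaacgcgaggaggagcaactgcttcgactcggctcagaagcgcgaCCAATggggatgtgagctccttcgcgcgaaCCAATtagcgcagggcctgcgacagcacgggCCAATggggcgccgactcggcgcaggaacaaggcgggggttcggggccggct
Of the 8 enzymes, 6 matched a RefSeq promoter, all except PSPH and SHMT2, and the 250 bases before each start were searched on both strands for TGATGNAA (the core of the element bound by ATF4 with a C/EBP partner), TGACGTCA (the cyclic AMP response element), CACGTG (the E-box), CCAAT and GGGCGG. These motifs did not overlap each other in the windows. PSAT1 held CCAAT 3 times, 113 to 109, 83 to 79 and 52 to 48 bases before the start, and GGGCGG once. CCAAT was present in all 6 windows, including those of enzymes that did not pass the test, against 33.0% of the promoters of all 27305 genes in the RefSeq table (1 window a gene). Of the 250 bases of a window, 250 for MTHFD1 and 197 for PHGDH lay in annotated exons on the same strand. GGGCGG was present in 3 of 6 (42.3% of all promoters) and CACGTG in 1 of 6, that of MTHFD1 (6.49%). TGATGNAA and TGACGTCA, found in 3.19% and 1.77% of all promoters, did not occur in these 6 windows, which are those nearest to each canonical start. The percentages over all genes instead take the first RefSeq window listed for each gene. For MTHFD1L that first window is not the one used here, and it held 1 TGATGNAA and 1 CACGTG, so the 2 rules give different counts. CCAAT was added to the motifs after the sequences had been read, and a match is a description of letters only.

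**Figure D2:**
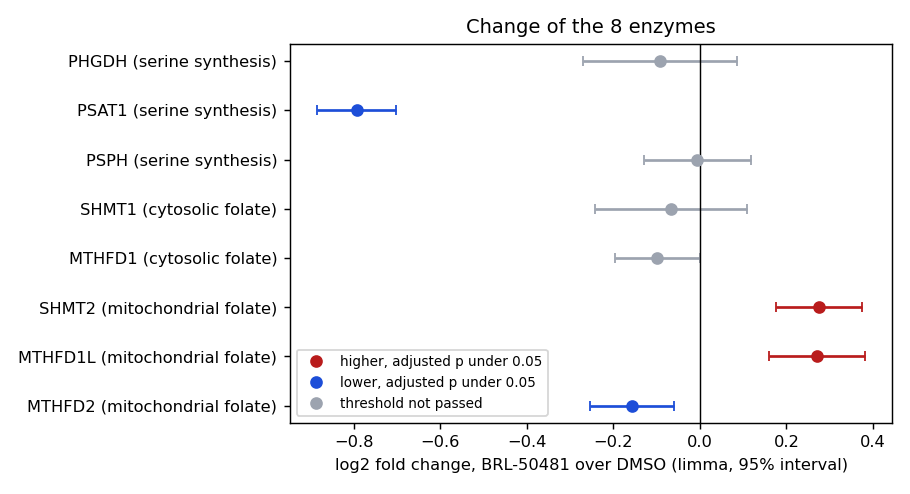
Log2 fold change of BRL-50481 over DMSO for the 8 enzymes (horizontal axis, linear, limma), with points for the estimate and bars for the 95% interval from 3 libraries a group. PSAT1 stands at −0.79, SHMT2 and MTHFD1L at 0.27 each and MTHFD2 at −0.16, and gray points did not pass the threshold.

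The mitochondrial enzymes all passed the test but did not move one way. SHMT2, the mitochondrial serine hydroxymethyltransferase (chromosome 12, 57229573 to 57234935), had normalized counts of 9029, 9511 and 9333 in DMSO and 10861, 11602 and 11252 in BRL-50481. Every treated library was above every DMSO library. The mean went from 9291 ± 244 to 11238 ± 370.3 (SD, n = 3 each), and the estimated log2 fold change was 0.27 ± 0.0460 (standard error) with an adjusted p of 0.000199. MTHFD1L, the mitochondrial formate-releasing enzyme (chromosome 6, 150865679 to 151101887), had normalized counts of 2397, 2307 and 2253 in DMSO and 2817, 2833 and 2743 in BRL-50481. It too was higher in every treated library, and its mean rose from 2319 ± 72.7 to 2798 ± 48.1 (SD, n = 3 each), with an estimate of 0.27 ± 0.0514 (log2, standard error) and an adjusted p of 0.000535. The rises of SHMT2 and MTHFD1L were close in size, at 21.0% and 20.6% of the DMSO mean. A log2 fold change at least as large in either direction was seen in 57.7% of all genes for SHMT2 and 58.2% for MTHFD1L. Both changes were thus below the median absolute log2 fold change of all genes, 0.33.

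MTHFD2, the mitochondrial dehydrogenase and cyclohydrolase (chromosome 2, 74186172 to 74217565), went the other way, with normalized counts of 5407, 5472 and 5549 in DMSO and 4982, 4920.5 and 4824 in BRL-50481. The groups did not overlap, but the gap was small. Its mean went from 5476 ± 71.1 to 4909 ± 79.7 (SD, n = 3 each), with a limma estimate of −0.16 on the log2 scale (standard error 0.0451, 95% interval −0.26 to −0.060, adjusted p = 0.00878). MTHFD2 did not pass the threshold with quantile normalization (−0.11, adjusted p = 0.0578) or without BRL-50481 replicate 3 (−0.15, adjusted p = 0.0565). Its isozyme MTHFD2L, named here after its values were seen, was far less abundant and also lower, from 194 ± 16.0 to 155 ± 12.3 normalized counts (log2 fold change −0.32, adjusted p = 0.0322).

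The promoters of MTHFD1L and MTHFD2 are set side by side because these mitochondrial enzymes act on the same folate-bound unit and moved in opposite directions. Each is the 250 bases before a RefSeq start (GRCh38.p14, plus strand), at chr6:150866083-150866332 for MTHFD1L and at chr2:74198365-74198614 for MTHFD2. The MTHFD1L window is the nearest of 4 to the canonical GENCODE start, but its RefSeq start is 631 bases downstream of that start. Its sequence thus lies inside the gene, wholly after the canonical start, whereas the RefSeq and canonical starts of MTHFD2 coincide. The 2 windows are therefore not equivalent. Capitals again mark CCAAT and GGGCGG.
MTHFD1L: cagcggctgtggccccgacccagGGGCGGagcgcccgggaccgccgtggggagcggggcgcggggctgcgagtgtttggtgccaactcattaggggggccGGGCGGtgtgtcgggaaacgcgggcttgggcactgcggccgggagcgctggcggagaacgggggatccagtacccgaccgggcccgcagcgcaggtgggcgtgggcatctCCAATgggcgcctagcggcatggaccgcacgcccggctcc
MTHFD2: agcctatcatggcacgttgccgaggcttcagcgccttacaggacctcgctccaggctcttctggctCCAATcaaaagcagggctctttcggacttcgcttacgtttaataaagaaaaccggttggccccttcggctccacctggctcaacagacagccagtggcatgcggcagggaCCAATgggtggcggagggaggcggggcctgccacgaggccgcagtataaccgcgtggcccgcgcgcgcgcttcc
MTHFD2 held CCAAT 2 times, 184 to 180 and 74 to 70 bases before its start, and no GGGCGG. MTHFD1L held CCAAT once, 40 to 36 bases before its start, and GGGCGG 2 times. The choice of window mattered for MTHFD1L, since 2 of its 4 RefSeq windows, with starts farther downstream, held TGATGNAA and CACGTG, and 3 of the 4 held CCAAT.

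The enzymes of the cytosolic folate cycle, MTHFD1 and SHMT1, did not pass the test. MTHFD1, the trifunctional cytosolic enzyme (chromosome 14, 64388031 to 64463457), had normalized counts of 7345, 7280.2 and 6944 in DMSO and 6665, 6812 and 6661 in BRL-50481. Every treated library was below every DMSO library, yet the log2 fold change of −0.099 (standard error 0.0454, 95% interval −0.20 to −0.00049) had an adjusted p of 0.0784. After correction for transcript length and GC content it was −0.070 and passed (adjusted p = 0.0485), but not when the replicate number was added as a block to that correction (adjusted p = 0.0523). SHMT1, the cytosolic serine hydroxymethyltransferase (chromosome 17, 18327860 to 18363563), had normalized counts of 590.4, 609 and 573 in DMSO and 595, 511 and 591 in BRL-50481. The groups overlapped, with BRL-50481 replicate 2 the lowest, and the log2 fold change was −0.066 (95% interval −0.24 to 0.11, adjusted p = 0.506). SHMT1 rested on 507 to 622 reads per library, the fewest of the 8 enzymes, and PSAT1 on 12309 to 21785.

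Cytosolic and mitochondrial counterparts were then compared as a log2 ratio within each library. The transcript length taken for a gene cancels from a change of this ratio between groups. A bias of a library linked to transcript length or GC content would not cancel. SHMT2 over SHMT1 was 3.93, 3.96 and 4.02 in DMSO and 4.19, 4.50 and 4.25 in BRL-50481. The ratio was higher in all 3 treated libraries, by 0.34 (standard error 0.10) or 1.27-fold. MTHFD1L over MTHFD1, the counterparts in formate handling, was −1.62, −1.66 and −1.62 in DMSO and −1.24, −1.27 and −1.28 in BRL-50481, higher in all 3 treated libraries by 0.37 (standard error 0.0170) or 1.29-fold. MTHFD2 over MTHFD1, the counterparts in oxidizing the folate-bound unit, was −0.44, −0.41 and −0.32 in DMSO and −0.42, −0.47 and −0.47 in BRL-50481. These last values overlapped, with a difference of −0.059 (standard error 0.0389). The 2-sided exact permutation test gave p = 0.1 for SHMT2 over SHMT1 and for MTHFD1L over MTHFD1, the smallest that 3 libraries against 3 allow, and p = 0.2 for MTHFD2 over MTHFD1, or 0.15, 0.15 and 0.2 adjusted over the 3 ratios. Thus no ratio could pass a threshold of 0.05 by this exact test, and no other test was applied to the ratios.

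**Figure D3:**
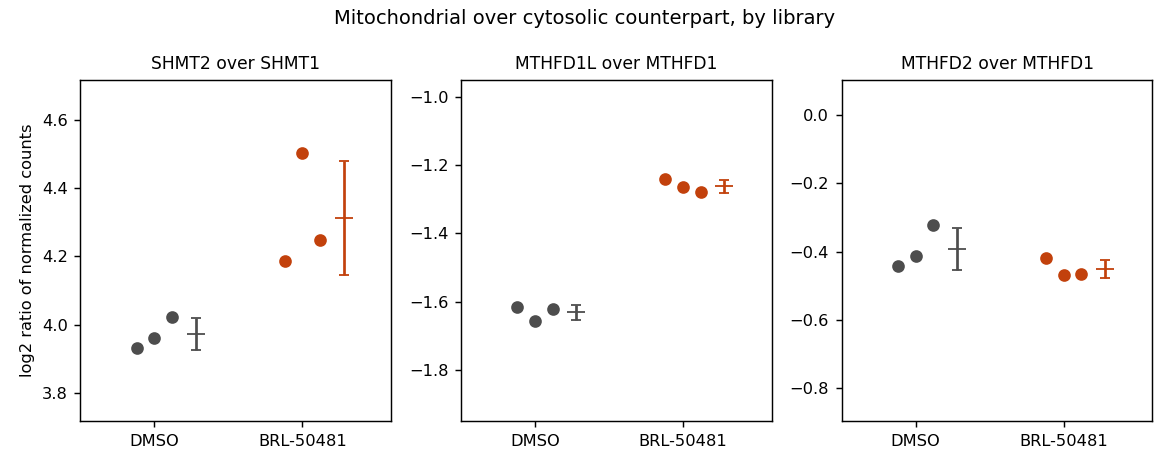
Log2 ratio of the normalized counts of a mitochondrial enzyme over its cytosolic counterpart (vertical axes, each spanning 1 log2 unit and not starting at 0) in each library of DMSO (gray) and BRL-50481 (orange), with the mean and SD of 3 libraries. The ratios of SHMT2 to SHMT1 and of MTHFD1L to MTHFD1 were higher in all treated libraries, and those of MTHFD2 to MTHFD1 overlapped.

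Per kb, SHMT2 made up 94.8% ± 0.156 of the hydroxymethyltransferase transcripts with DMSO and 95.9% ± 0.447 with BRL-50481 (SD, 3 libraries a group). MTHFD1L made up 22.8% ± 0.274 of its sum with MTHFD1 in DMSO and 27.6% ± 0.260 in BRL-50481. The levels per kb summed to 6223 ± 107 in DMSO and 7136 ± 169 in BRL-50481 for the 3 mitochondrial enzymes, and to 2513 ± 73.9 and 2352 ± 8.56 for the cytosolic SHMT1 and MTHFD1. SHMT2 was the largest part of the mitochondrial sum, and the rise of MTHFD1L per kb was close in size to the fall of MTHFD2.

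Further genes of serine, folate and methionine metabolism were read from the same fit. Of 45 listed, 35 were analyzed and tested, and 12 were higher, 13 lower and 10 did not pass, with a median log2 fold change of −0.022. These counts are also to be read against the 28.9% of all genes that were higher and the 29.8% that were lower, as are those of the shorter lists that follow. Among 10 genes that interconvert folates, 5 were higher and 1, MTHFD2L, was lower. The largest rise was that of ALDH1L2, the mitochondrial enzyme that oxidizes formyl-folate to carbon dioxide, from 10.7 ± 6.49 to 45.0 ± 8.17 normalized counts (log2 fold change 2.15, standard error 0.411, adjusted p = 0.000571), at a low level. Its cytosolic counterpart ALDH1L1 was also higher (0.55). Each of the 3 folate transporters analyzed passed the test. SLC25A32, which carries folate into mitochondria, fell from 3892 ± 42.3 to 2303 ± 39.7 (log2 fold change −0.76, adjusted p = 5.01e-08), and its exons overlap those of another annotated gene on the same strand. The proton-coupled folate transporter SLC46A1 was lower (−0.41), while the folate receptor FOLR1 rose from 24.6 ± 2.57 to 58.9 ± 7.78 (1.22, adjusted p = 0.000272).

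Of 4 enzymes that use folate units, the purine enzymes ATIC (−0.42) and GART (−0.31) were lower, the methionine synthase MTR was higher (0.28, but 0.078 and not past the threshold after correction for transcript length and GC content), and the thymidylate synthase TYMS did not pass (0.013, adjusted p = 0.832). In the glycine cleavage system, 1 of 3 genes passed, GCSH (−0.88, adjusted p = 0.00786), a gene that shares exon sequence with same-strand neighbors, so its reads are uncertain. All 7 genes of serine use and transport passed, 4 higher and 3 lower, against 58.7% of all genes, and this difference was not tested. SLC1A5, an abundant importer of neutral amino acids, fell from 28526 ± 1095 to 17772 ± 537 (−0.68, adjusted p = 8.24e-08). SFXN2, a mitochondrial sideroflexin, rose from 143 ± 18.1 to 333 ± 37.6 (1.21, adjusted p = 2.8e-06), and the serine racemase SRR rose by 0.66. Of 8 genes listed under the methionine cycle and transsulfuration, 1 was higher, the AHCY-like gene AHCYL1 (0.45), and 4 were lower. AHCY itself, named after its values were seen, did not pass (−0.036, adjusted p = 0.565). The falls were largest for CTH, which makes cysteine from cystathionine (−0.59, adjusted p = 3.52e-07), and MTRR, which reactivates methionine synthase (−0.50).

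**Figure D4:**
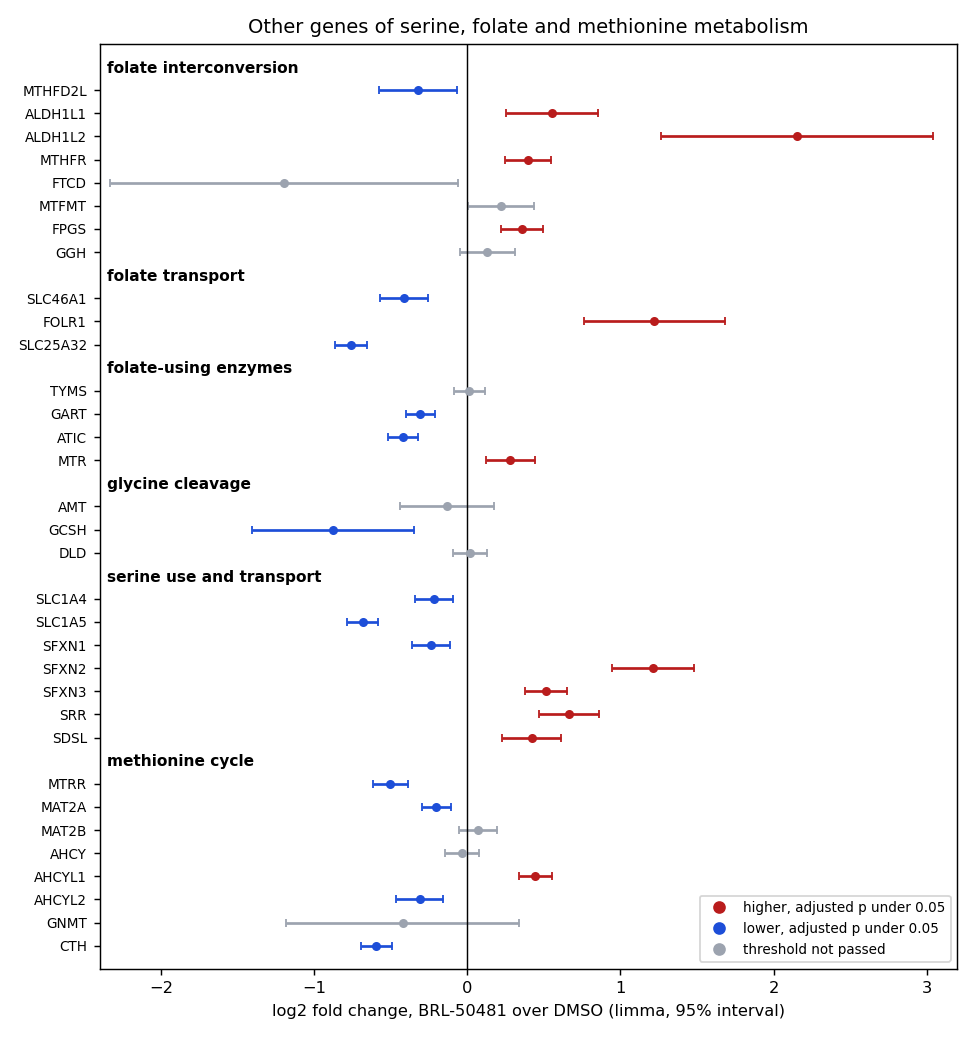
Log2 fold change of BRL-50481 over DMSO (horizontal axis, linear, limma) for 33 of the 35 other genes of serine, folate and methionine metabolism, grouped by role, with points for the estimate and bars for the 95% interval from 3 libraries a group. Of the genes plotted 11 were higher (red), 13 were lower (blue) and 9 did not pass the threshold (gray), with genes of both directions in every group except glycine cleavage.

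ATF4 and MYC are transcription factors known to activate genes of serine synthesis and mitochondrial folate metabolism. ATF4 was lower, going from 12259 ± 847 to 9587 ± 163 normalized counts (log2 fold change −0.35, adjusted p = 8.41e-05), and MYC fell from 27641 ± 1435 to 12291 ± 177 (−1.17, adjusted p = 1.63e-09). NFE2L2 did not pass (0.0035, adjusted p = 0.954), and neither did PKM (−0.066, adjusted p = 0.23), which passed in opposite directions with quantile normalization (0.16, adjusted p = 0.00224) and without DMSO replicate 1 (−0.091, adjusted p = 0.0183). Of 12 ATF4 targets outside the pathway, 2 were higher and 6 were lower, with a median of −0.13, where 28.9% of all genes were higher and 29.8% lower. CHAC1 (−0.96), the asparagine synthetase ASNS (−0.86) and NUPR1 (−0.81) changed most, and the exons of ASNS and NUPR1 overlap other annotated genes. The higher ones, named after their values were seen, were SESN2 (0.77) and TRIB3 (0.75). The part of ATF4 and MYC in the enzymes' changes was not tested.

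Finally, the genes most like PSAT1 and SHMT2, the enzymes with the largest fall and the largest rise, were looked up by the distance between log2 profiles over the 6 libraries, each centered on its mean, among 11455 genes averaging 100 normalized counts or more. The nearest to PSAT1 were PGRMC1 (distance 0.0617), the mitochondrial folate carrier SLC25A32 (0.0638) and ABCF2 (0.0669). The nearest to SHMT2 were DAP (0.0274), the glucose transporter SLC2A1 (0.0275) and KDM4B (0.0287). Of the enzymes themselves, MTHFD1L came nearest to SHMT2, at rank 228 (distance 0.131), and MTHFD2 nearest to PSAT1, at rank 4056 (distance 0.779). With 2 groups, such a distance mostly reflects the size of the difference between them.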

How the data were processed

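RNA sequencing of MDA-MB-231 cells was analyzed in 6 libraries (3 DMSO, 3 BRL-50481), grouped by the sample titles. The authors mapped reads to hg38 (STAR 2.7.1a), counted them per UCSC gene with HTSeq on the reverse strand, and normalized them with DESeq2 1.28. The labels describe oligo-dT selection and the series record ribosomal depletion, so the RNA selected is uncertain.

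The deposited signal per library is the read count divided by a DESeq2 size factor. The deposited columns of the authors' own comparison (mean signal, log2 fold change, its error, a test score, p-value and adjusted p-value) were not used. In all 6 libraries, 100% of values divided by what 1 read was worth gave whole numbers (tolerance 1e-06), so reads were recovered for edgeR 4.0.16 and DESeq2 1.42.0, used as alternatives.

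The authors' stated filter, 3 or more libraries with a normalized count of 4 or higher, kept 15246 of 15651 deposited genes. These were tested with limma 3.58.1 in R 4.3.3 (trended eBayes) on log2 (normalized count + 1), so fold changes are on that scale and understate changes of low genes. Replicate libraries of a group differed by more than counting noise (chi-square per degree of freedom of recovered reads 2.63 to 22.1), and each counted as 1 sample. Reads of the 8 enzymes numbered 507 to 21785 per library, and counting error alone was at most 4.44% of a value. Positions, canonical transcript lengths and GC content came from GENCODE 44 on hg38, and 96.5% of genes matched. No exons of the 8 enzymes overlapped those of another gene on their strand. Annotated pseudogenes exist for PSAT1 (4), MTHFD2 (7), PSPH, SHMT1 and MTHFD1 (1 each), and reads that align to them equally well may be missing from the counts.

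The 8 enzymes and the gene lists were chosen with earlier results of these data known. Genes named are the 8 enzymes, up to 3 called genes of each further list with the largest absolute log2 fold change, the listed regulators, and the 3 nearest profiles to the enzymes with the largest rise and fall. Some genes that this rule names are not reported here. Alternatives comprised edgeR, DESeq2, pseudocounts of 0.5 and 4, no filter or a mean of 20 or more, limma without a trend, median centring, quantile normalization, the replicate number as a block, a loess correction (span 0.5) of each library for transcript length and GC content, and leaving out each library. The fits were tested on simulated counts in which 200 of 15246 genes changed, by a log2 of 0.5 or 1. Smaller changes, such as those of SHMT2, MTHFD1L and MTHFD2, were not simulated. Neither was a change in as large a share of genes as in these data. The limma fit found 91% of log2 changes of 0.5 and called 12 of 15046 unchanged genes. With a trend on transcript length added to the treated libraries, limma without the correction called 5546 of 15046 unchanged genes. The corrected limma fit then called 7 of 14536.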

Additional observations from a re-analysis of the deposited data

How the results depend on the processing

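The same 4 of the 8 enzymes passed the threshold under 14 of the 18 alternatives, among them edgeR and DESeq2 on recovered reads, and the alternatives that differed are given here. With quantile normalization 1 enzyme instead of 2 was lower, since MTHFD2 (−0.11) no longer passed, and leaving out single libraries gave 1 to 3 lower enzymes, with MTHFD2 between −0.17 and −0.15. MTHFD1 passed after the correction for length and GC content (−0.070), but not with the block added (adjusted p = 0.0523). Among enzymes that did not pass, the sign was not fixed. PSPH was at 0.044 with quantile normalization, 0.024 with median centring and 0.079 with the length and GC correction, and between −0.040 and 0.012 with single libraries left out. In those fits PHGDH lay between −0.15 and 0.00088, and SHMT1 between −0.10 and 0.0058. Under all 18 alternatives PSAT1 stayed between −0.81 and −0.70, SHMT2 between 0.25 and 0.34 and MTHFD1L between 0.25 and 0.33, each past the threshold. The ratio of MTHFD2 over MTHFD1 went from −0.059 to −0.13 with the length and GC correction, where its exact p was 0.1, the smallest possible, and to −0.025 without DMSO replicate 3. Leaving out DMSO replicate 1 put PHGDH past the threshold, and leaving out BRL-50481 replicate 3 put MTHFD2 short of it. Of the regulators, PKM was at 0.16 with quantile normalization and −0.091 without DMSO replicate 1, past the threshold both times, and NFE2L2 lay between −0.0073 and 0.021 with single libraries left out. The causes of these shifts were not tested.

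The replicate numbers were shared by both groups. Deviations of same-numbered libraries from their group means correlated weakly but always positively (0.121, 0.104 and 0.0514). Libraries of different numbers gave −0.159 to 0.0607, the highest being BRL-50481 replicate 3 with DMSO replicate 2, above its own number. Whether the numbers mark paired cultures was not tested, and the main fit did not pair them. With the replicate number as a block, 4440 genes were higher and 4589 lower, against 4400 and 4546 without it, and the same 4 enzymes passed with unchanged fold changes (PSAT1 −0.79). The block together with the length and GC correction put PSPH at 0.079. The 3 libraries per group limit the ratios to exact p-values of 0.1 or more.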
